A study of Rattus norvegicus with 16 samples.

Results

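The organ difference at baseline was examined in male wild type Sprague-Dawley rats aged 1 year that had been kept in room air (RA), by setting the aorta against the kidney across all genes. Members were all libraries labelled as room air: 4 RA aortas and 4 RA kidneys, which made up 8 of the 16 libraries of the series. The other 8 libraries, 4 aortas and 4 kidneys, came from rats of the same age that had breathed 85% oxygen from postnatal day 1 to day 14, and they are used here only to see whether the organ difference was found again. RNA was polyA-selected and sequenced, so each value reflects mRNA from homogenised tissue. According to the methods of the study, the aortic tissue was the arch with the thoracic aorta, and each organ group held 4 animals, but the labels do not say that each library is a separate animal. The study followed rats of both sexes to 1 year, and its text does not give the sex of the animals sequenced. The male sex stated above could therefore not be checked against it.

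The aorta is an elastic artery. Its wall is built mainly of contractile smooth muscle cells set between elastic and collagen fibres, lined by endothelium and wrapped in an adventitia with fibroblasts, nerves and often adherent fat. The kidney filters blood in glomeruli and recovers water, salts, sugars and amino acids along a nephron of distinct epithelial segments, each with its own transport proteins. Bulk RNA from either organ is a mixture of all of these cells.

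Each row of the count tables carries an Ensembl identifier with no gene name beside it, and a search of the rat gene table used here matched 0 of 23918. Markers of smooth muscle or nephron segments could therefore not be looked up, and the organ labels were not checked against defining markers. A pair of genes per direction is given by identifier below, and other genes are described by group. All genes of an organ came from a separate table, so organ, table and sequencing depth coincide: the RA aorta libraries held 33611534 to 47021612 counts and the RA kidney libraries 25527226 to 25868352. Organ and any difference in how the tables were made cannot be told apart.

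Most genes differed between the organs. Levels are given as counts scaled to 1000000 per library (CPM) by the trimmed mean of M-values (TMM), and log2 fold changes are RA aorta minus RA kidney. Calls came from the quasi-likelihood test of edgeR and the study's own thresholds, which were a Benjamini-Hochberg false discovery rate (FDR) below 0.1 together with a log2 fold change beyond 0.32 either way. Of 15366 genes tested, 10649 were called (69.3%). Under TMM they were split almost evenly, with 5267 higher in the aorta (34.3% of genes tested) and 5382 higher in the kidney (35%). The median log2 fold change over all tested genes was -0.0040, and the median size of the change without regard to direction was 0.87. TMM centres the fold changes near 0, so the even split and the median near 0 are partly set by the scaling. With library totals alone the median was -0.185, and 41.2% of calls were higher in the aorta. In bulk tissue, fewer cells of a type and less RNA per cell cannot be told apart.

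**Figure D1:**
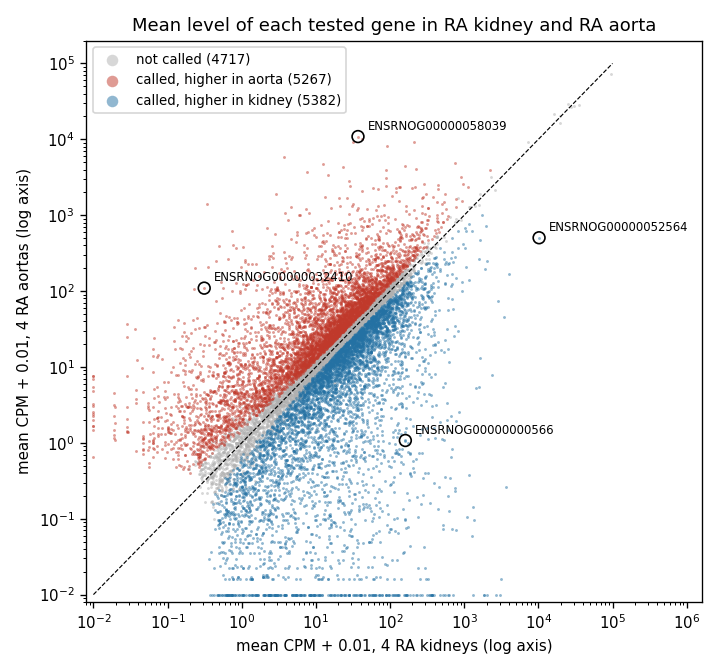
Mean TMM-scaled CPM of each of the 15366 tested genes in the 4 RA kidneys (x axis, log scale) and the 4 RA aortas (y axis, log scale), with 0.01 CPM added for display and the dashed line marking equal levels. Genes called higher in the aorta (5267) lie above the line and genes called higher in the kidney (5382) below it, the row of points along the bottom edge being genes with no count in any RA aorta, and the 4 genes given by identifier are circled.

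Most called genes had ranges that did not overlap between the organs, which the test itself favours with so few libraries per organ. In 9784 tested genes (63.7%) every aorta lay on one side of every kidney, and 9443 of these were among the called genes. The other 1206 called genes overlapped, 1108 of them with at least 1 aorta inside the range of the kidneys and 98 with aortas on both sides of it. A further 422 genes passed the FDR threshold with a change too small to be called.

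Large differences leaned toward the kidney. The called genes higher in the aorta had a median log2 fold change of 1.28, and those higher in the kidney one of -1.63. A fold change over 2 was found for 3176 genes higher in the aorta and 3693 higher in the kidney. Over 8-fold the counts were 995 and 1592, over 32-fold 303 and 887, and over 64-fold 172 and 709. A fitted fold against an organ with no count is not a bound, and with such genes set to the floor of 3 counts per library the counts were 994 and 1562, 293 and 797, and 159 and 592. With the added condition that the organs did not overlap, 964 genes were over 8-fold higher in the aorta (6.27% of genes tested) and 1587 in the kidney (10.3%). The lean over 8-fold held for every normalization tried and turned when genes were required to have at least 10 counts in every library, where 624 were over 8-fold higher in the aorta and 538 in the kidney. That requirement removes genes near 0 in one organ by construction.

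Genes confined to one organ at this depth were mostly kidney genes. A gene was counted here when it reached a given level in every library of one organ and had at most 3 counts in each library of the other. At 10 CPM or more, 155 genes met this for the kidney and 3 for the aorta. Of the 155, 97 had no count in any RA aorta, while none of the 3 was at 0 in all kidneys. At 1 CPM or more the counts were 322 for the kidney and 43 for the aorta. At 100 CPM or more, 42 kidney genes and 0 aorta genes remained. The most abundant aorta gene with at most 3 counts in each kidney averaged 72.7 CPM, whereas the most abundant kidney gene with at most 3 counts in each aorta averaged 3092 CPM.

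The most abundant of these genes give the size of the gap. At 1000 CPM or more, 7 kidney genes had at most 3 counts in each RA aorta, and 6 of them had none. The 6 lay between 1124 and 3452 CPM in the RA kidneys. Taking 3 counts in a library as the floor, which was at most 0.0972 CPM in an aorta, the mean kidney level of each of the 6 was at least 13710-fold higher. The floor covers counting error only and says nothing of the pipeline behind the counts.

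The aortas were the deeper libraries. After thinning all 8 libraries to the smallest total, 181 genes met the rule at 10 CPM for the kidney and 4 for the aorta. Leaving out each library in turn gave 158 to 175 for the kidney and 3 to 5 for the aorta. With CPM kept from all 8 libraries, this step can only keep or raise the counts, as fewer libraries have to meet the rule. In the hyperoxia libraries, which the choice of these genes did not use, 112 genes met it for the kidney and 3 for the aorta. The hyperoxia aortas held 68643302 to 83929106 counts, more than any RA aorta. The limit of 3 counts was therefore a lower level in CPM there, and how far this lowered the hyperoxia counts was not tested. Of the 155 RA kidney genes, 131 were again at 10 CPM or more in every hyperoxia kidney and 108 again had at most 3 counts in each hyperoxia aorta. The highest level that any of the 155 reached in a hyperoxia aorta was 0.773 CPM.

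More genes were detected in the kidney. RA aortas had 12880 ± 109 genes at 1 CPM or more and RA kidneys 13790 ± 50.4 (SD, n = 4 each). All 4 kidneys lay above all 4 aortas, and the difference was -909.2 genes (two-sided exact permutation test, p = 0.0286 and no smaller value is possible with 4 against 4; 0.0429 after Benjamini-Hochberg adjustment over 3 library measures). Genes with any count numbered 16840 ± 293 in the aortas and 17840 ± 36.9 in the kidneys (difference -1003, exact permutation p = 0.0286, adjusted 0.0429), although the aortas had more counts to find them with. A core of 11445 genes was at 1 CPM or more in all 8 libraries, out of 12172 that reached it in every aorta and 13177 in every kidney.

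The genes at the top of each organ were largely different once the few most abundant had been passed. The 1000 most abundant genes of each organ had 435 in common and the top 100 had 26 in common, yet 8 of the top 10 were the same and the same gene came first. Genes at 1000 CPM or more in every library numbered 62 in the aorta, 44 in the kidney and 13 in all 8. At 100 CPM or more they numbered 1070, 1175 and 539.

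The aorta's leading genes formed a steep group. The 12 with the highest mean level among genes over 8-fold higher in the aorta without overlap averaged between 3761 and 10870 CPM in the RA aortas. Their log2 fold changes ran from 4.20 to 10.62. Together they took 4.70 to 10.4% of the counts of an RA aorta and 0.0858 to 0.113% of those of an RA kidney.

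The most abundant of the 12 was ENSRNOG00000058039, which ranked 9 among all genes of the aorta. It stood at 11321, 6590, 10366 and 15206 CPM in RA aortas 1 to 4, and at 32.7, 37.9, 52.0 and 25.2 CPM in RA kidneys 1 to 4. The lowest aorta was 127 times the highest kidney, and the widest gap among the aortas was between replicates 2 and 4. This is a log2 fold change of 8.20 with a standard error of 0.44 (294-fold; edgeR, FDR 5.3e-07).

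The smallest p-value among genes higher in the aorta belonged to ENSRNOG00000032410. It was at 94.9, 107, 131 and 104 CPM in RA aortas 1 to 4 and at 0.288, 0.221, 0.421 and 0.278 CPM in RA kidneys 1 to 4, where it rested on 6 to 11 counts per library. The aortas were tight and the kidneys close to the floor of 3 counts, and its 359-fold difference rests on those few kidney counts. Its log2 fold change was 8.49 with a standard error of 0.21 (edgeR, FDR 2.6e-08).

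Among the kidney's leading genes the first matched the aorta's first in level and the second was at 3998 CPM, against 10055 CPM for the second of the aorta. The corresponding 12 genes averaged between 1883 and 10220 CPM in the RA kidneys and took 3.79 to 5.04% of a kidney's counts, against 0.0905 to 0.136% of an aorta's. In 3 of them no RA aorta had a count, and in 1 more the RA aortas held a single count in all, so no fold is given for these 4. For the other 8 the log2 fold changes ran from -13.81 to -3.03. One of the 12 passed at an FDR of 0.0504 from edgeR, because its level in the RA aortas ranged from 3.17 to 546 CPM.

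The most abundant of these was ENSRNOG00000052564, which ranked 9 in the kidney and 235 in the aorta. It was at 361, 893, 430 and 333 CPM in RA aortas 1 to 4 and at 8487, 7307, 16356.5 and 8732 CPM in RA kidneys 1 to 4. Kidney 3 stood well above the other kidneys and aorta 2 above the other aortas, and the organs stayed apart. Its log2 fold change was -4.34 with a standard error of 0.46 (20.3-fold; edgeR, FDR 3.4e-05).

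The kidney gene with the smallest p-value was ENSRNOG00000000566. It was at 1.17, 1.10, 1.00 and 0.981 CPM in RA aortas 1 to 4 and at 144, 147, 178 and 174 CPM in RA kidneys 1 to 4. Both organs were tight around their means, and the aorta values rested on 34 to 47 counts per library. Its log2 fold change was -7.23 with a standard error of 0.14 (edgeR, FDR 2.4e-08), the kidney being 150.5-fold higher.

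**Figure D2:**
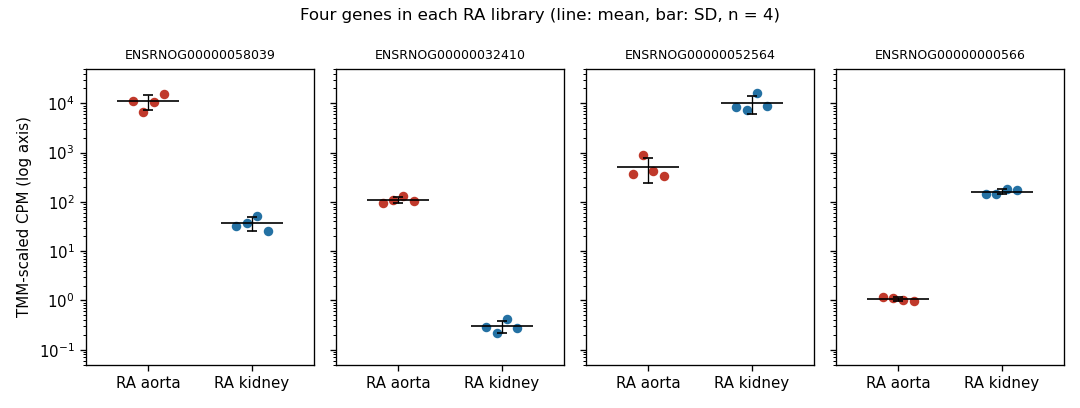
TMM-scaled CPM (log axis) of the 4 genes given by identifier in RA aortas and RA kidneys, each point being 1 library in order of replicate 1 to 4, with the line at the mean and the bar at 1 SD (n = 4). No aorta overlaps a kidney in any of the 4 genes, and the widest spread within an organ is in ENSRNOG00000052564.

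Genes that did not differ were fewer than genes that could not be called. For 307 of the 15366 genes (2%), the 95% interval of the log2 fold change lay within 0.32 of 0 in either direction. The fit used a common estimate of spread per gene for both organs, although the aortas varied more. The interval also leaves out error in the scaling, and library totals alone shifted the log2 fold changes by -0.18 in the median. The 8 most abundant of these averaged 139 to 212 CPM in both organs, with log2 fold changes from -0.09 to 0.08 and interval bounds from -0.32 to 0.30. The other 4410 uncalled genes had an interval that reached beyond these limits, so the absence of a call does not show equal levels for them, and 422 of them passed the FDR threshold. In 5 groups of equal size by mean level, the share of genes called was 65.4, 69, 66.9, 68.3 and 76.9% from lowest to highest. The share higher in the aorta moved more, from 27.7% in the lowest group to 44.3% in the highest. The share higher in the kidney moved less, from 37.7 to 32.6%.

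The 8 genes in the top 10 of both organs moved between libraries more than between organs. They averaged 16190 to 71990 CPM in the RA aortas and 16300 to 94480 CPM in the RA kidneys, none was called, and their log2 fold changes lay between -0.39 and 0.39 (FDR 0.597 to 0.952 from edgeR). Their intervals were wide, the bounds running from -1.8 to 1.82, so for each of the 8 a difference of over 2-fold in either direction remained possible. These 8 took 26.7, 37.5, 12.4 and 7.58% of the counts of RA aortas 1 to 4, and 29.1, 30.0, 31.5 and 23.2% of those of RA kidneys 1 to 4. Aorta 2 was above and aortas 3 and 4 were below every kidney. Within the aortas each of the 8 spanned a 5.6- to 7.99-fold range, against 1.41- to 1.77-fold in the kidneys.

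**Figure D3:**
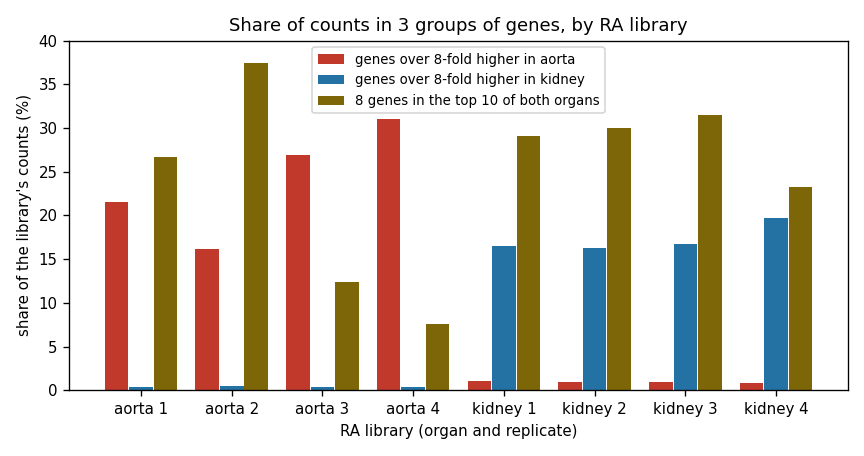
Share of each RA library's counts (y axis, percent) in sets of genes, with 1 group of bars per library. The sets are called genes without overlap over 8-fold higher in the aorta, and likewise in the kidney. The last set is the 8 genes in the top 10 of both organs. The shared 8 genes range from 7.58 to 37.5% in the aortas and from 23.2 to 31.5% in the kidneys, and the aorta-high bars are lowest where the shared bars are highest.

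Shares of a library sum to a fixed total, so a larger share in these 8 genes leaves less for all others. The 10 most abundant genes held 23.9 ± 12.7% of an RA aorta's counts and 30.3 ± 3.88% of an RA kidney's (SD, n = 4 each), a difference that did not pass the test (two-sided exact permutation test, p = 0.343, adjusted 0.343). With the shared 8 left out, an alternative added after seeing the data, the next 10 held 9.59 ± 0.682% in the aortas and 6.47 ± 0.554% in the kidneys, and the difference turned to 3.12 percentage points higher in the aorta (exact permutation p = 0.0286). Called genes over 8-fold higher in the aorta without overlap took 21.6, 16.1, 26.9 and 31.0% of the counts of RA aortas 1 to 4. In the kidneys they took 0.878 to 1.03%. Without the shared 8 these shares were 29.4, 25.8, 30.7 and 33.6%, and the SD relative to the mean went from 27.1 to 10.8%. The same step raised the relative SD of the kidney-high genes' share in the RA aortas from 6.58 to 23.0%, and that of the aorta-high genes' share in the RA kidneys from 6.96 to 10.4%. Called genes over 8-fold higher in the kidney without overlap took 16.3 to 19.7% of a kidney's counts and 0.373 to 0.432% of an aorta's.

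The RA aortas varied more among themselves than the RA kidneys did. Over 7473 genes at 10 CPM or more on average in both organs, the median SD of log2(CPM + 2) was 0.232 in the aortas and 0.0893 in the kidneys, and the SD was larger in the aortas for 6557 genes (87.7%). Leaving out each library in turn kept this share between 77.3 and 89.9%, the lowest without aorta 2. Thinning to equal totals left the medians at 0.234 and 0.0897, and thinning after the 8 shared genes had been taken out, so that the counts left for all other genes were equal, gave 0.24 and 0.0964. In the hyperoxia libraries the share was 55%, with medians of 0.173 in the aortas and 0.157 in the kidneys. The share was 45.8 to 64.6% when each of these 8 libraries was left out in turn. The study's methods set 1 hyperoxia kidney aside as an outlier without naming it in the text. Without hyperoxia kidney 1, 2, 3 or 4 the share was 49.8, 58.4, 64.6 and 59.9%, and the kidney median 0.177, 0.144, 0.127 and 0.144, so with any 1 of them set aside the share stayed under that of the RA libraries. These shares are descriptions over genes, which are not independent.

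**Figure D4:**
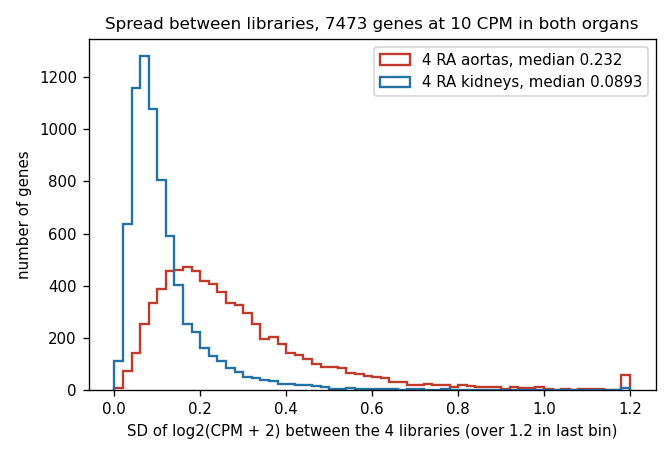
Number of genes (y axis) by SD of log2(CPM + 2) between the 4 RA aortas or the 4 RA kidneys (x axis, SDs over 1.2 in the last bin), over the 7473 genes at 10 CPM or more on average in both organs. The kidney distribution is narrow around a median of 0.0893 and the aorta distribution is broad around 0.232.

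The same ordering appeared in other summaries of the whole profile. Across genes, pairs of RA aortas had correlations of 0.947 to 0.987, pairs of RA kidneys 0.985 to 0.991, and aorta with kidney 0.628 to 0.666. Root mean square distances in log2(CPM + 2) were 0.337 to 0.676 among aortas, 0.253 to 0.335 among kidneys and 1.6 to 1.75 between the organs. Thus the closest aorta and kidney were more than 2 times as far apart as the most distant aortas. The first principal component separated the organs and held 91.0% of the variance. The second held 4.59% and spread the aortas, at 19.7, 42.8, -22.6 and -37.1 for replicates 1 to 4, while the kidneys stayed between -2.01 and 2.91.

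A set of genes followed that spread. Ranges were taken in CPM + 2, among genes at 10 CPM or more on average in the organ. By that measure 248 of 8740 genes spanned over 4-fold across the RA aortas (2.84%). Across the RA kidneys 43 of 9134 did so (0.471%), and 8 genes did so in both organs. The aorta count fell to 118 without aorta 2 and to 136 without aorta 4, and the kidney count to 21 without kidney 3 and to 27 without kidney 4. Of the 248, 146 (58.9%) had aortas 1 and 2 as the highest pair and 51 had aortas 3 and 4. The organ call was mixed in the 146, of which 69 were called higher in the aorta, 17 higher in the kidney and 60 were not called. Over all tested genes 34.3% were called higher in the aorta and 35% higher in the kidney. For the 146 the 10 CPM limit was set on the RA aortas, which favours genes higher there.

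In 26 genes both aortas 1 and 2 were over 4-fold above both aortas 3 and 4, and in no gene was the reverse true. They were chosen after their values were seen, and their levels in the RA aortas are given as a description. They held 0.597, 0.498, 0.0708 and 0.0508% of the counts of RA aortas 1 to 4, and 0.383 to 0.428% in the RA kidneys. Their median level was 173, 111, 11.2 and 4.68 CPM in RA aortas 1 to 4 and 18.3 to 31.7 CPM in the RA kidneys, so by summed share the kidneys lay nearer to aortas 1 and 2 and by median nearer to aortas 3 and 4. In the hyperoxia aortas, which did not enter the choice, they held 0.518, 0.0623, 0.156 and 0.492% in replicates 1 to 4, again spanning a wide range, while the hyperoxia kidneys lay between 0.318 and 0.408%. Of the 26, 15 were called higher in the RA aorta, 3 higher in the RA kidney and 8 were not called. Over all tested genes the shares called were 34.3% higher in the aorta and 35% higher in the kidney. As the 26 were chosen by high values in 2 aortas, the direction of their calls is not read as a result about them. What these genes encode could not be looked up.

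The organ difference was found again in rats exposed to hyperoxia after birth. This comparison shares no library with the RA one and keeps all 4 hyperoxia kidneys. Of 15813 genes tested there, 11349 were called (71.8%), 5555 higher in the aorta and 5794 higher in the kidney. Of the 10594 RA-called genes that were tested in both, 10467 had the same sign and 9547 were called in the same direction, which is 90.1% of these genes and 86.5% of the hyperoxia calls that were tested in both. Only 9 were called in opposite directions. Of 2505 genes with a called difference over 8-fold and no overlap in RA, 2504 kept the sign and 2267 were over 8-fold and called in the same direction.

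**Figure D5:**
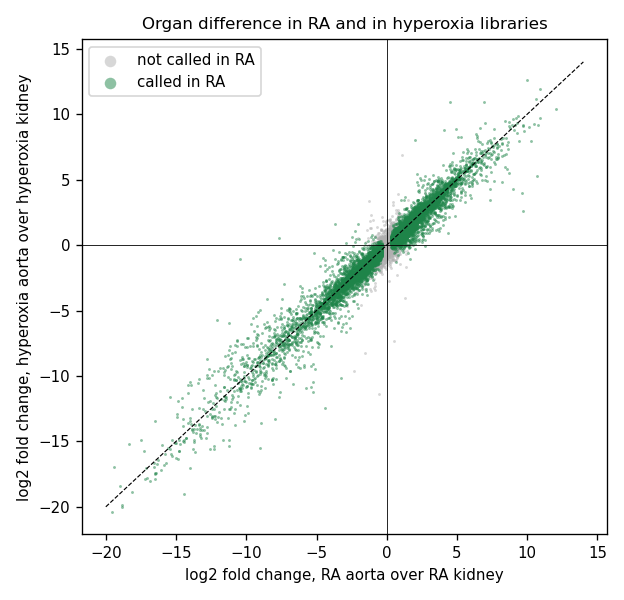
Log2 fold change of aorta over kidney in the RA libraries (x axis) and in the hyperoxia libraries (y axis) for the 15300 genes tested in both, with the dashed line marking equal changes and genes called in RA in green. Called genes over 8-fold apart without overlap in RA lie near the line on both sides, with 1 of 2505 on the other side of 0.

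Sizes also matched across genes, with a correlation of 0.972 between log2 fold changes over 15300 genes, given as a description because genes are not independent. The median difference between the 2 estimates was 0.248 on the log2 scale without regard to sign, and 1226 genes (8.01%) differed by more than 1. The 4 genes given by identifier had log2 fold changes of 7.70 (ENSRNOG00000058039), 8.18 (ENSRNOG00000032410), -5.00 (ENSRNOG00000052564) and -6.62 (ENSRNOG00000000566) in the hyperoxia libraries. In a fit over all 16 libraries, the test of the difference between exposures gave FDRs of 0.764 to 0.903 from edgeR for these 4, which does not show that the organ difference was equal.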

How the data were processed

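The authors ran kallisto on the paired-end reads against rat transcripts (rn6.0) and collapsed its output by gene with tximport. The deposited values are the resulting estimated counts, without scaling, in one table per organ. Tool versions, annotation release and the tximport setting are not given in the sources used here. Both tables were joined by identifier and values were rounded (24.3 to 28.8% per library were not whole). Genes were kept by edgeR's filterByExpr by organ, scaled by TMM and tested with edgeR 4.0.16 (glmQLFit, glmQLFTest) in R 4.3.3, with calls at FDR under 0.1 and fold over 1.25. Standard errors come from the F statistics. Library values were compared by exact permutation. DESeq2 1.42.0, voom in limma 3.58.1, other scalings, filters, thresholds, thinning and leaving out libraries were alternatives. The fits were tested on simulated data in which few genes changed, equally often in both directions, with the same spread in both organs. In the data most genes were called and the RA aortas varied more. The simulation therefore did not test the scaling or the unequal spread.

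The libraries, lists and rules were chosen with earlier results of these data known. The rule named, in each direction, the 12 most abundant genes called without overlap at over 8-fold and the 5 with the smallest p-value, the 8 most abundant with an interval within 1.25-fold, and the 8 with the widest range in each organ. Without names, only the first of the first 2 parts are given by identifier in each direction. The descriptions of genes near 0 in one organ, of the genes shared by both top 10s and of the spread within an organ were chosen after values were seen. The 39 gene lists, the marker check and the promoter letters were not run, as no identifier could be given a name. The depth of 25527226 to 47021612 counts and the 4 libraries per organ set the precision, and p-values measure only the spread between these libraries, which may be technical.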

Additional observations from a re-analysis of the deposited data

Results flagged for a closer look

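In 40 groups of 4 libraries examined for a library far from the other 3, 6 stood out. With normal values about 2 would do so by chance. The groups are not independent, as shares of a library sum to a fixed total and some contain others. No excess over chance is therefore read from the 6. RA kidney replicate 4 had 42.43% of its counts in genes called higher in the kidney, against 36.62 to 37.17% in the other RA kidneys. It had 19.73% in called genes over 8-fold higher in the kidney without overlap, against 16.29 to 16.71%. The same library had the lowest share of counts in the 8 most abundant shared genes, 23.2% against 29.1 to 31.5%. RA aorta replicate 4 had 0.3728% of its counts in the same genes over 8-fold higher in the kidney without overlap, against 0.4234 to 0.4322% in the other RA aortas.

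ENSRNOG00000058039, the most abundant gene of those far higher in the aorta, was at 183.98 CPM in hyperoxia kidney replicate 4 and at 19.7 to 31.9 CPM in the other hyperoxia kidneys. That library also had the highest share of counts in called genes over 8-fold higher in the RA aorta without overlap, 1.36% against 0.712 to 1.14%. ENSRNOG00000052564, the most abundant of the kidney's leading genes, was at 16356.5 CPM in RA kidney replicate 3, against 7307 to 8732 CPM in the other RA kidneys. It was at 5112.71 CPM in hyperoxia kidney replicate 2, against 12909 to 13934 CPM in the other hyperoxia kidneys.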

How the results depend on the processing

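The count of 10649 called genes was 10353 to 11835 under the other count models, scalings, thinning and the fit without a filter, and 8663 with at least 10 counts in every library. It was 6726 at FDR under 0.05 and fold over 2, where 3101 genes were higher in the aorta and 3625 in the kidney, by construction of the stricter thresholds. None of these fits called a gene in the opposite direction to the main one. Library totals alone shifted the median log2 fold change by -0.18 and left 41.2% of calls higher in the aorta, against 49.5%. Leaving out each library in turn gave 10324 to 11059 calls, 5099 to 5390 higher in the aorta and 5176 to 5669 higher in the kidney, and 10856 to 11610 in the hyperoxia libraries. The difference in the share of the top 10 genes was then -11.65 to -2.574 percentage points, and 3.12 without the 8 shared genes, whose removal is what that alternative consists of. The deficit of genes at 1 CPM or more in the aorta was then -950.5 to -867.5, and that of genes with a count -1078 to -859.8, with an exact permutation p of 0.0571 each, the smallest that 7 libraries allow. With 2 aortas left out, an alternative added after seeing the data, 11417 (aortas 3 and 4 kept) and 11220 (aortas 1 and 2 kept) genes were called. The 4 genes given by identifier kept direction and call in each setting in which they were tested. No paired analysis was possible because no number in the labels is shared by an RA aorta and an RA kidney. In the hyperoxia libraries 3 numbers recur in both organs, which the comparison of 11349 calls did not use. Deviations from the organ means correlated across genes at 0.0307, 0.00987 and 0.16 in these 3 pairs. Between an aorta and a kidney of unlike number they correlated at -0.145 to 0.102. With 3 libraries per organ, these values cannot tell whether a shared number marks the same animal. On these 6 libraries, a fit added after seeing the data called 11259 genes, and 11151 with the replicate block, 10935 of them by both in the same direction. Depth limits the genes near 3 counts in one organ, whose fold changes rest on few counts.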
